A study of Mus musculus with 13 samples.

Results

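Fibroblasts of the mouse lung were compared between late bleomycin injury and regrowth after lung removal. Bleomycin is a DNA-damaging drug that injures the lung and leaves a scar, which in mice partly resolves with time. Pneumonectomy is lung removal by surgery, and the lung that is left enlarges and forms new alveoli without a scar. In both settings fibroblasts make matrix and signals for neighbouring cells, as myofibroblasts that contract and lay down collagen and elastin, as alveolar fibroblasts next to the epithelium, and as adventitial fibroblasts around vessels and airways. The question was therefore which genes fibroblasts expressed differently in a scarred and in a regrowing lung.

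RNA sequencing of 5 libraries taken on day 30 after bleomycin (replicates 1 to 5) was set against 3 libraries taken on day 14 after pneumonectomy (called A, B and C, because their columns carry no replicate number). The bleomycin libraries came from Col1a1-GFP mice labelled 8 weeks old, a reporter strain whose green fluorescent protein is under a collagen promoter. The design text of the series gives the same reporter to all groups, whereas the pneumonectomy libraries are labelled only as primary sorted fibroblasts, with no age in weeks and no strain, and the deposited table heads all groups as young. Sham libraries (n = 2) and libraries of day 14 after bleomycin (n = 3), both labelled Col1a1-GFP and 8 weeks, entered the fit and are given as reference values. The labels state neither the sorting gate nor whether each library came from 1 mouse, so p values measure the spread between these libraries. Genes were taken where they lie on an autosome and reached at least 1 RPKM (reads per kilobase of gene, per M reads) in 2 or more of the 13 libraries, which 12321 of the 36450 autosomal genes in the table did. Of these, 10797 were protein-coding.

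Sex, depth and other cells differed between the 2 groups of libraries. By their transcripts the sexes differed, with Xist, which coats the inactive X chromosome, at 19.9 to 29.2 RPKM at day 30 and at most 0.0222 after pneumonectomy, and the Y-linked Ddx3y at 0 and at 15.9 to 23.8 RPKM. The sham libraries differed from each other, since sham replicate 1 held transcripts of both kinds (Xist at 15.9 and Ddx3y at 2.14 RPKM) and sham replicate 2 had 0.0147 and 11.4 RPKM. Sham values are therefore given per library. Both sham libraries entered the fit. Sex, day, treatment and any difference in preparation between the compared groups cannot be told apart. Restricting the genes to autosomes does not remove effects of sex on them. The day 30 libraries were also deeper, with an estimated 133 M to 200.4 M reads behind the RPKM values against 69.0 M to 75.5 M. At these depths 1 read in a gene of 2 kilobases was worth 0.00250 to 0.00725 RPKM over the 8 libraries. Markers of other cells differed too. The summed RPKM of 19 macrophage markers was 249 to 891 at day 30 and 37.2 to 60.3 after pneumonectomy, and that of 15 pericyte and smooth muscle markers was 247 to 285 and 432 to 597. The 9 defining fibroblast markers summed to 3545 to 3985 and 3015 to 4702 RPKM, and none of them was at 0.

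Differences are given as day 30 minus pneumonectomy on the scale of log2(scaled RPKM + 0.1), with the standard error of a limma fit, so that negative values mark genes higher after pneumonectomy and differences of low genes are understated. A gene was called at an adjusted p under 0.05 (limma, Benjamini-Hochberg over all genes tested, two-sided). Genes were named by a fixed rule, and further examples were chosen after their values were seen. By this test 57.7% of the 12321 genes were called, 28.5% higher at day 30 and 29.1% higher after pneumonectomy. The shares in each direction are the reference for the counts of lists below. They varied with the level of the genes. Under 1 RPKM 37.2% were called higher at day 30 and 15.3% after pneumonectomy. At 5 to 20 RPKM the shares were 21.1% and 38.5%, at 20 to 100 RPKM 12.6% and 51.0%, and over 100 RPKM 11.0% and 44.5%. Lists were not matched for level, so for abundant genes the reference understates the share called higher after pneumonectomy. Differences over 2-fold were called in 10.2% of genes, in 3.22% of genes with the higher level at day 30 (397 genes) and in 6.94% with the higher level after pneumonectomy (855 genes). The median difference over all genes was 0.01, and the 5th and 95th percentiles were -1.24 and 0.83. Without scaling between libraries the median moved to 0.34, with 7067 genes called higher at day 30 and 1633 after pneumonectomy instead of 3515 and 3591, and with upper-quartile scaling the counts were 5048 and 2570. Small differences thus depend on the scale, and differences near or below 0.34 are read here only relative to the bulk of genes.

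**Figure D1:**
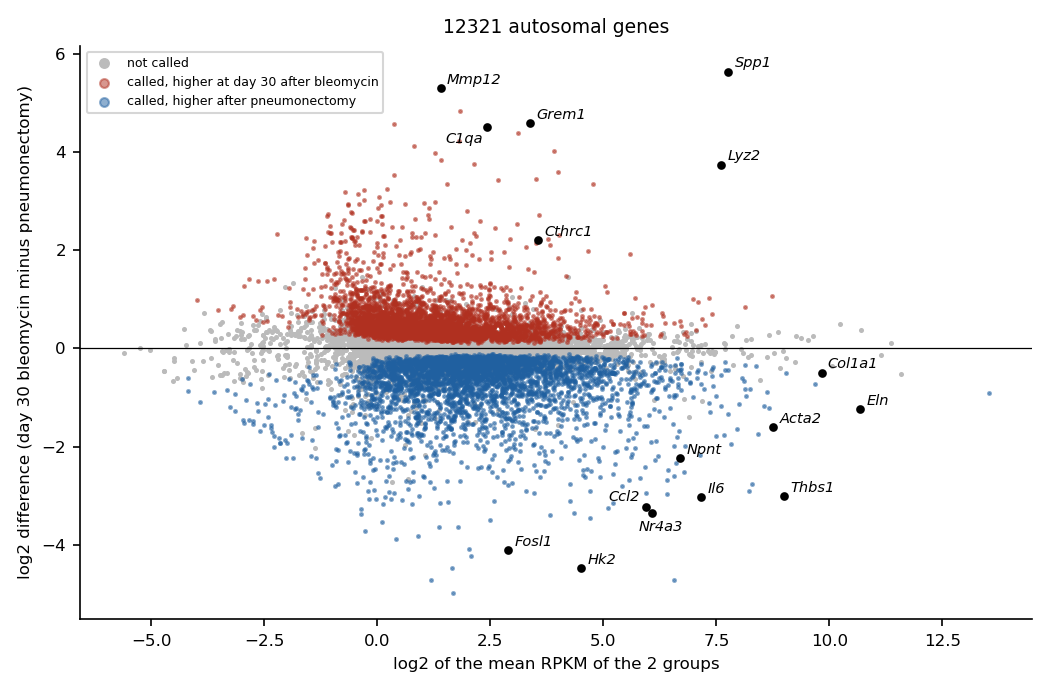
Log2 difference (day 30 bleomycin minus pneumonectomy, vertical axis) against the log2 of the mean RPKM of both groups (horizontal axis) for the 12321 autosomal genes, each point a gene, coloured by its call, with 16 genes in black. Spp1 lies highest at 5.63, Hk2 and Fosl1 lie at -4.48 and -4.10, and Col1a1 lies at -0.49 among genes that were not called.

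Inflammatory genes were higher after pneumonectomy. NF-kB is a transcription factor that is held in the cytoplasm by inhibitor proteins such as the product of Nfkbia and that, once released, drives chemokines, cytokines, adhesion molecules and its own inhibitors. Of 27 tested genes in a list of NF-kB and inflammatory genes, 25 were higher after pneumonectomy, none was higher at day 30 (Nfkbie and Ptges were not called), and the median difference was -2.27. To show a stretch of regulatory sequence that some of these genes share, the 250 bases before the start site of 4 of them follow, taken from RefSeq on build GRCm38.p6. Capitals mark a form of the NF-kB binding word, GGGA and TTTCC with any 1 base between them, searched on both strands with no other motif.
Il6 (chr5:30012864-30013113, plus strand): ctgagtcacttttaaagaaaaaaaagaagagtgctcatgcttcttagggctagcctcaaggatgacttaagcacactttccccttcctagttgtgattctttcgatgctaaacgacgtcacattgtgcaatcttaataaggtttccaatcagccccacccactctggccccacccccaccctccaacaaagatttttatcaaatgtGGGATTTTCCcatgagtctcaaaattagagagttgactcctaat
Cxcl1 (chr5:90890995-90891244, plus strand): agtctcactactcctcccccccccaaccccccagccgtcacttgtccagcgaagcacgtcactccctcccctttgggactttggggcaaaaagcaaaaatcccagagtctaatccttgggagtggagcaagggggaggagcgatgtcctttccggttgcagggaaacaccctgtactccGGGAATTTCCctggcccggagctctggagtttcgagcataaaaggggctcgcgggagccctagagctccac
Cxcl2 (chr5:90903649-90903898, plus strand): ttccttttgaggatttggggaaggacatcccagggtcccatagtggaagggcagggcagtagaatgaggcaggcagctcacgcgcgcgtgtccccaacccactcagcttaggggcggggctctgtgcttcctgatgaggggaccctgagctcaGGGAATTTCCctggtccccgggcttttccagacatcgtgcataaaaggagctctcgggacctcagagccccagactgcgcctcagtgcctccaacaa
Nfkbia (chr12:55492648-55492897, minus strand): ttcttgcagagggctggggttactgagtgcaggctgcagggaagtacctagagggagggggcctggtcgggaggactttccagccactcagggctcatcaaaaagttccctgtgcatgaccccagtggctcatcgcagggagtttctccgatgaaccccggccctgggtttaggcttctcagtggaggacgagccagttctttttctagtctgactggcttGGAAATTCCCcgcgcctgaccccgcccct
In Il6, Cxcl1 and Cxcl2 the word reads along the gene's strand, and in Nfkbia on the opposite strand. It stood in 6 of the 20 list genes that had a RefSeq promoter entry (these 4, Csf1 and Nfkb2). Over the same length it stood in 0.414% of all 27025 genes with such an entry. A match is a description of letters and says nothing about binding in these cells.

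Ccl2 (chromosome 11, 82035600 to 82037500 on GRCm38), the chemokine that attracts monocytes, stood at 126, 115 and 83.1 RPKM after pneumonectomy and at 19.9, 15.1, 11.3, 10.9 and 16.1 RPKM in day 30 replicates 1 to 5. The sham libraries, at 8.48 and 7.57 RPKM, lay below all of these, and the groups did not overlap. The difference was -3.23 ± 0.22 (adjusted p = 9.00e-07). Il6, the cytokine interleukin 6, stood at 303, 315 and 123 RPKM after pneumonectomy, at 94.3, 35.4, 27.6, 19.6 and 29.4 at day 30 and at 59.4 and 29.2 in sham. Its lowest pneumonectomy library, C, was still above day 30 replicate 1, which was far above the other day 30 libraries (difference -3.03 ± 0.48, adjusted p = 2.57e-04). The neutrophil chemokines Cxcl1 and Cxcl2 were at 342 to 624 and 35.3 to 59.3 RPKM after pneumonectomy against 58.0 to 164 and 5.22 to 8.96 RPKM at day 30.

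Adhesion molecules and subunits of the factor itself moved the same way. Icam1 and Vcam1, which bind leukocyte integrins, were at 152, 157 and 115 RPKM and at 191, 211 and 140.5 RPKM after pneumonectomy. At day 30 they stood at 34.6, 27.2, 26.6, 23.3 and 27.1 RPKM and at 44.6, 39.4, 35.7, 40.1 and 37.9 RPKM, so that no library overlapped. Their differences were -2.69 ± 0.14 and -2.52 ± 0.15 (adjusted p = 2.79e-07 and 3.55e-07). Nfkb1, which encodes the p105 precursor of an NF-kB subunit, differed by -2.62 ± 0.17, from 9.47 to 10.8 RPKM at day 30 to 34.2 to 66.0 after pneumonectomy. The inhibitors Nfkbia and Tnfaip3 differed by -1.68 and -2.27, the prostaglandin synthase Ptgs2 by -2.19, and the cytokines Lif and Csf3 by -2.61 and -3.06. The deposited RPKM of 25 of the 27 list members did not overlap between the groups, against 65.4% of all genes (54.3% after scaling). Under the unscaled values 25 members were still called higher after pneumonectomy and 1 higher at day 30. Sele, the endothelial adhesion molecule E-selectin, was also higher after pneumonectomy (-3.64 ± 0.28). The 20 endothelial markers summed to 44.1 to 83.1 RPKM after pneumonectomy and 42.9 to 50.5 at day 30. Taken singly, 14 of these markers were called higher after pneumonectomy, none at day 30 and 6 were not called (median -1.62). The part of endothelial cells in the difference of Sele and of the adhesion molecules was not tested.

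Immediate-early genes, which are transcribed within minutes of a stimulus without new protein synthesis, were in large part higher after pneumonectomy. Of 27 tested, 20 were higher after pneumonectomy and none at day 30, with a median of -1.25, and 15 of the 20 differed by over 2-fold. Fosl1, the AP-1 subunit Fra-1, was at 17.9, 14.5 and 9.48 RPKM after pneumonectomy, at 0.933, 0.869, 0.823, 0.873 and 1.02 RPKM at day 30 and at 0.824 and 0.774 RPKM in sham. Day 30 and sham libraries lay together and all pneumonectomy libraries lay above them (difference -4.10 ± 0.18, adjusted p = 8.18e-08). The orphan nuclear receptors Nr4a3 and Nr4a2 differed by -3.34 ± 0.30 and -3.25 ± 0.33, with Nr4a3 at 136, 143 and 78.2 RPKM after pneumonectomy and 23.5, 16.8, 9.16, 12.1 and 13.7 at day 30. Maff, a small Maf protein, differed by -2.94 ± 0.25, and Ier5 by -2.36 ± 0.14.

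Other widely used members did not share this pattern. Fos stood at 423, 342 and 425 RPKM after pneumonectomy and at 629, 452, 455, 389 and 462 RPKM at day 30, with a difference of -0.09 ± 0.25 (adjusted p = 0.772) whose sign turned without scaling (0.25). Its sham values, 726 and 279.8 RPKM, spanned both groups. Jun, Ier2, Btg2, Klf2, Dusp1 and Zfp36 were not called either. Egr1 was called (-0.67 ± 0.19) although its deposited RPKM overlapped (287 to 317 after pneumonectomy and 198 to 356 at day 30), and the call was lost without scaling. Day 30 replicate 1 was the highest of its group for Fos, Egr1, Atf3, Nr4a1 and Il6. Without it, Nr4a3 differed by -3.52 and Il6 by -3.39.

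**Figure D2:**
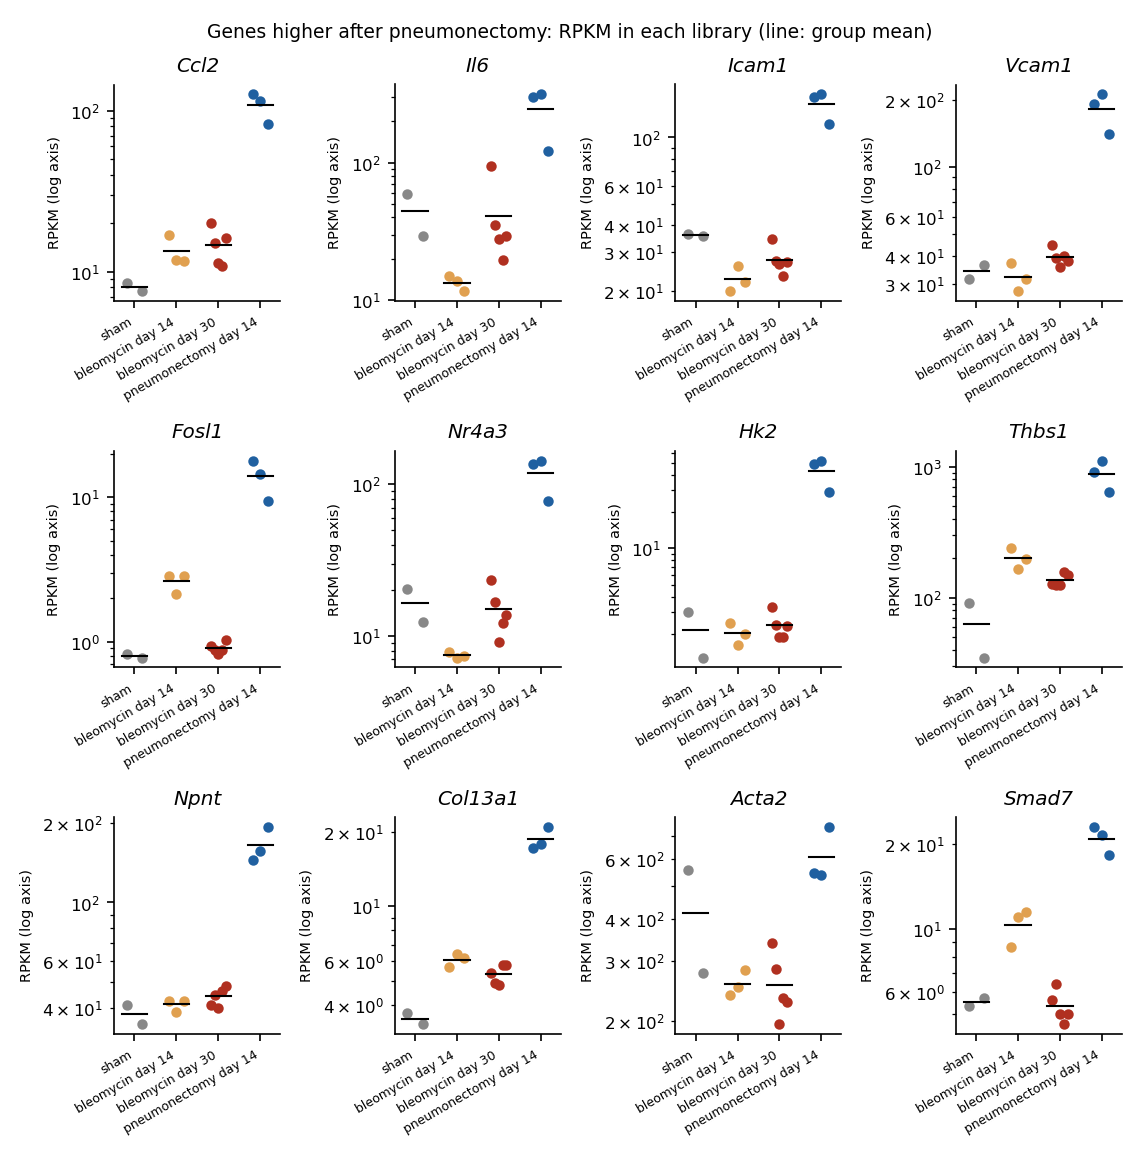
RPKM on a log axis in each of the 13 libraries for 12 genes higher after pneumonectomy, by group, with points for libraries and a line for the group mean. In all 12 panels the 3 pneumonectomy libraries lie above the 5 day 30 bleomycin libraries, for example Npnt at 145 to 192 RPKM against 40.1 to 48.4.

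Hk2, a hexokinase that starts glucose breakdown, had the most negative difference among genes named by the fixed rule whose groups did not overlap. Among genes without a list, Cytl1 and the inositol phosphate kinase Itpkc differed by -4.09 and -3.36. Hk2 stood at 48.9, 52.1 and 29.1 RPKM after pneumonectomy, 3.30, 2.35, 1.86, 1.88 and 2.31 RPKM at day 30 and 3.03 and 1.27 RPKM in sham (-4.48 ± 0.29, adjusted p = 7.24e-07). The glucose transporter Slc2a1 was at 12.2 to 19.1 RPKM against 4.77 to 5.79 RPKM (-1.95 ± 0.17). The oxygen-sensing factors Hif1a and Epas1 differed by -0.90 and -1.22, and the hypoxia-responsive Ndrg1 by -1.15. Most enzymes of the glycolytic chain itself differed less. Of the 25 genes of glycolysis and hypoxia 16 were called higher after pneumonectomy and none at day 30, but the median was -0.29, Ldha was at -0.39 and Gapdh, Tpi1, Pgam1 and Eno1 were not called. Without scaling the list had 9 genes higher after pneumonectomy and 4 higher at day 30.

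Glucocorticoid-responsive genes, which steroid hormones of the adrenal induce through the receptor Nr3c1, were higher after pneumonectomy in 10 of 15 and in none at day 30 (median -1.31). Sgk1, a kinase of ion transport, had narrow groups, at 40.0, 38.4 and 35.4 RPKM against 8.70, 9.44, 8.77, 7.61 and 8.58 RPKM (-2.47 ± 0.09, adjusted p = 2.94e-08). Hsd11b1, which regenerates active glucocorticoid in the cell, was at 22.5 to 25.0 RPKM against 8.46 to 9.30, and the metallothionein Mt2 at 158 to 261 against 35.1 to 94.1. Fkbp5, another classical target, was not called (0.47), nor was Nr3c1 itself (0.09). Of 20 clock genes 13 were higher after pneumonectomy and 1 at day 30 (8 and 2 without scaling). Among them the repressor Nfil3 differed by -2.24 ± 0.14 and Per1 by -1.05 ± 0.31, the latter not called without scaling. Heat-shock genes were higher after pneumonectomy in 9 of 17 and at day 30 in none (5 and 4 without scaling), led by the co-chaperone Bag3 (-2.02 ± 0.18), while the inducible and nearly identical Hspa1a and Hspa1b, between which reads could be split, were not called.

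The contractile programme was higher after pneumonectomy in every gene of its list. All 25 tested genes of smooth muscle and myofibroblast contraction were called (22 without scaling), against 29.1% of all genes in that direction, and the median was -1.20. Acta2 (chromosome 19, 34241100 to 34255600), the smooth muscle actin that marks myofibroblasts, was at 544, 539 and 743 RPKM after pneumonectomy and 341, 284, 196, 234 and 228 RPKM at day 30 (-1.60 ± 0.23, adjusted p = 1.20e-04). The sham libraries, at 556 and 278 RPKM, overlapped both groups. Smooth muscle myosin Myh11 was at 137, 154 and 214 RPKM and 63.9, 67.7, 40.2, 52.2 and 45.7 RPKM, and Actg2, another smooth muscle actin, differed by -2.03 ± 0.22. Calponin (Cnn1) differed by -2.01 ± 0.27 and the filament protein synemin (Synm) by -1.48 ± 0.15. Vinculin (Vcl), which links actin to adhesions, differed by -1.21 ± 0.12. The transcription factor Srf and its partner Myocd differed by -0.997 and -1.54.

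These values moved with markers of pericytes and smooth muscle cells, of which 9 of 15 were higher after pneumonectomy, 2 were higher at day 30 and 4 were not called. Myh11, Actg2, Cnn1, Lmod1 and Des stand in both lists. The pericyte genes outside the contractile list pointed both ways, with Notch3 at -1.23, Cspg4 at -1.08 and Rgs5 at -0.83, but Kcnj8 at 0.62 and Trpc6 at 1.69. The call of Rgs5 was lost without scaling and under many other settings, among them the compared groups alone and leaving out pneumonectomy library A or C. In bulk libraries more contractile cells and more contractile RNA per cell cannot be told apart, and the part of pericytes in the result was not tested.

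Alveolar fibroblast genes were likewise higher after pneumonectomy. Of 26 tested genes of the alveolar and lipid-storing fibroblast, 16 were higher after pneumonectomy and 3 at day 30 (median -0.71, and 14 and 6 genes without scaling). Npnt (chromosome 3, 132882000 to 132950000), the matrix ligand nephronectin, was at 145, 157 and 192 RPKM after pneumonectomy and 41.2, 44.8, 40.1, 46.4 and 48.4 RPKM at day 30 (-2.23 ± 0.10, adjusted p = 6.58e-08). The sham libraries (41.2 and 34.7 RPKM) lay at or below the day 30 level. Its receptor subunit, the integrin Itga8, was at 81.8, 100.2 and 114 RPKM against 37.0, 37.0, 26.4, 33.8 and 32.1 RPKM. Col13a1, a transmembrane collagen that marks alveolar fibroblasts, was at 17.3, 17.9 and 20.9 RPKM against 5.37, 4.90, 4.80, 5.78 and 5.78 RPKM (-2.13 ± 0.07), and the receptor Fgfr4 differed by -2.07 ± 0.10.

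Other members differed less. Tcf21, a transcription factor of alveolar fibroblasts, was at 32.5, 33.2 and 33.7 RPKM against 30.04, 20.8, 26.5, 24.0 and 24.4 RPKM (-0.75 ± 0.13), and sham was at 37.2 and 35.8. Pdgfra differed by -0.67 ± 0.12, from 46.3 to 56.7 RPKM to 61.4 to 75.3 RPKM. Lipid-handling members went both ways. Ces1d, a lipid hydrolase, was higher after pneumonectomy (-1.51). Lpl (lipoprotein lipase) and the transcription factor Cebpa were higher at day 30 (0.71 and 0.76), and Plin2 and Pparg were not called (0.34 and 0.56). Day 30 replicate 3 stood apart for Cebpa (9.71 RPKM) and held the alveolar epithelial gene Sftpc at 970 RPKM against 4.14 to 10.6 in the other 4.

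Ligands that act on the alveolar epithelium were called in both directions. Of 20 growth factor genes, 11 were higher after pneumonectomy and 3 at day 30, but 5 and 5 without scaling. Hbegf, a ligand of the EGF receptor, was at 7.62, 5.43 and 7.42 RPKM against 2.61, 2.47, 2.85, 2.68 and 2.76 RPKM (-1.64 ± 0.14). Fgf10, which drives lung branching and epithelial progenitors, differed by -1.06 ± 0.15, and Hgf, which acts on epithelium through the receptor Met, by -1.02 ± 0.19. Angpt1, a ligand of endothelial cells, differed by -0.80 ± 0.11. Fgf18, Pdgfc and Pdgfa were higher at day 30 at 0.94, 0.95 and 0.45.

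The matrix did not differ as a block. The main scar collagens were not called: Col1a1 stood at 1427, 707 and 783 RPKM after pneumonectomy and 675, 749, 811, 987 and 997 RPKM at day 30 (-0.49 ± 0.25, adjusted p = 0.108). Pneumonectomy library A was above all day 30 libraries, and B and C lay among the lower ones. Col1a2 and Col3a1 gave -0.40 ± 0.21 and -0.36 ± 0.20 (adjusted p = 0.113 and 0.138). A p above the threshold does not show that the levels were alike. Postn (periostin), a gene of matrix-making fibroblasts, was at 35.4, 31.0 and 37.3 RPKM and 28.8, 40.5, 52.1, 56.5 and 55.1 RPKM (0.05 ± 0.19, adjusted p = 0.845).

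Around these collagens, separate matrix groups went separate ways. Of 29 fibrillar matrix genes 11 were higher after pneumonectomy, 3 at day 30 and 15 not called (median -0.32). Without scaling the counts turned to 4 after pneumonectomy and 8 at day 30 (median 0.03), and without pneumonectomy library A they were 7 and 4. Thbs1 (thrombospondin 1), which can release active TGF-beta, led the first at 904, 1107 and 644 RPKM against 127, 125, 124, 158 and 149 RPKM (-3.01 ± 0.28). The collagen VI chains Col6a1 and Col6a2 differed by -0.83 ± 0.12 and -0.98 ± 0.12. Lum and Fmod, small proteoglycans that bind collagen fibrils, were higher at day 30, Lum at 166 to 217 RPKM against 79.5 to 111 (0.60 ± 0.13) and Fmod at 29.1 to 63.4 against 12.8 to 18.0 (1.27 ± 0.26).

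Genes of the basement membrane, the sheet under epithelium and endothelium, were higher after pneumonectomy in 15 of 17 and at day 30 in none (median -0.72). The laminin chains Lamb2 and Lama4 differed by -0.71 ± 0.08 and -0.67 ± 0.06, nidogen Nid1 by -0.66 ± 0.10, and the collagen IV chain Col4a3 by -1.68 ± 0.28. Without scaling 13 of the 17 were still called higher after pneumonectomy and none at day 30. Elastic fibre genes went both ways. Eln, which encodes elastin, was at 2078, 1680.5 and 2544 RPKM after pneumonectomy and 557, 1120.4, 1330.0, 1487 and 1441 RPKM at day 30, with no overlap and day 30 replicate 1 lowest (-1.23 ± 0.29, adjusted p = 0.00322). Sham was at 343 and 357 RPKM, below both groups. The microfibril gene Mfap4 (-1.16 ± 0.15) and Adamtsl2 (-1.80 ± 0.20) went with Eln. Ltbp2, which encodes a microfibril protein, was at 35.6, 81.8, 73.1, 105 and 105 RPKM at day 30 against 13.8, 14.1 and 19.3 (1.92 ± 0.29). The microfibril genes Fbn2 and Mfap5 were also higher at day 30 (1.63 and 0.32). In all, 8 of 18 elastic fibre genes were higher after pneumonectomy and 4 at day 30 (7 and 5 without scaling). The shares over all genes were 29.1% after pneumonectomy and 28.5% at day 30.

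Collagen cross-linking and processing enzymes were higher after pneumonectomy in 13 of 23 and at day 30 in 1 (median -0.28). Without scaling the counts turned to 3 and 7 (median 0.06). Lox, which cross-links collagen and elastin, was at 77.2, 59.3 and 60.1 RPKM against 19.8, 32.0, 34.2, 38.7 and 39.0 RPKM (-1.37 ± 0.22), and Loxl4 and the procollagen peptidase Adamts2 differed by -1.40 ± 0.20 and -1.02 ± 0.14. The exception higher at day 30 was the prolyl hydroxylase subunit P4ha3 (1.09 ± 0.32, at 3.29, 7.66, 8.43, 9.78 and 12.6 RPKM against 3.16, 2.71 and 2.53). Proteases went both ways in the Adamts and Mmp families, and of 32 genes in the protease list 11 were higher after pneumonectomy and 10 at day 30 (9 and 16 without scaling). With scaling both counts were near the shares over all genes, 29.1% and 28.5%. Aggrecan- and versican-cleaving Adamts4 and Adamts1 were higher after pneumonectomy, Adamts4 at 53.3, 59.5 and 29.0 RPKM against 5.86, 4.95, 3.42, 5.88 and 6.05 RPKM (-3.46 ± 0.29), Adamts1 by -2.34 ± 0.17, while Adamts5 was higher at day 30 (0.61). The matrix metalloproteinases Mmp12, Mmp9, Mmp10 and Mmp13 were higher at day 30, at 2.41 to 6.98, 1.54 to 3.25, 0.861 to 1.71 and 0.946 to 2.32 RPKM against 0.00550 to 0.0462, 0.0675 to 0.103, 0.0694 to 0.177 and 0.168 to 0.430. The gelatinase Mmp2 was higher after pneumonectomy (-0.61). Mmp12 is macrophage elastase, and Mmp9 is abundant in neutrophils.

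Genes known from fibrosis were among the largest differences toward day 30. Spp1 (chromosome 5, 104435000 to 104441000), which encodes the secreted phosphoprotein osteopontin, stood at 290.1, 522, 317, 483 and 523 RPKM at day 30 and 9.87, 4.25 and 6.49 RPKM after pneumonectomy, with sham at 2.91 and 2.32 RPKM. The lowest day 30 library was far above the highest of the other 2 groups (5.63 ± 0.31, adjusted p = 2.84e-07). Grem1 (gremlin 1), a secreted antagonist of BMP ligands, was at 11.7, 21.7, 13.05, 27.4 and 28.0 RPKM against 0.929, 0.400 and 0.427 RPKM (4.59 ± 0.33, adjusted p = 1.32e-06). Cthrc1, the marker of collagen-producing fibroblasts in scars, was at 10.5, 17.1, 20.6, 26.7 and 26.4 RPKM against 4.90, 2.63 and 2.58 RPKM (2.20 ± 0.33, adjusted p = 1.77e-04), with sham at 4.55 and 2.40. Ibsp, bone sialoprotein, an integrin-binding relative of Spp1, was at 2.87, 9.21, 4.43, 9.34 and 9.30 RPKM against 0.297, 0.0321 and 0.0491 RPKM (4.83 ± 0.49). For Cthrc1 and Ibsp day 30 replicate 1 was the lowest of its group and still above all pneumonectomy libraries.

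Many members of the same list were not called. Of 22 genes of the fibrotic fibroblast, 8 were higher at day 30 (5 without pneumonectomy library C), 2 after pneumonectomy and 12 not called (median 0.33, and 0.67 without scaling). The shares over all genes were 28.5% at day 30 and 29.1% after pneumonectomy. The 8 include Lrrc15, a marker of activated fibroblasts (1.61), and Ltbp2. Tnc (tenascin C) and Fn1 (fibronectin) were at 19.3, 35.3, 33.3, 66.1 and 54.8 and 192, 288, 297, 391 and 424 RPKM at day 30 against 19.1, 23.9 and 30.1 and 169, 173 and 185 RPKM, and neither was called (adjusted p = 0.411 and 0.110), although the RPKM of Fn1 did not overlap. Runx1, a transcription factor, was on the side of pneumonectomy (-0.70 ± 0.21), at 3.07 to 3.97 RPKM against 1.69 to 3.52 RPKM with sham at 0.358 and 0.327. Its call was lost without scaling, with a correction for gene length or without pneumonectomy library A.

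**Figure D3:**
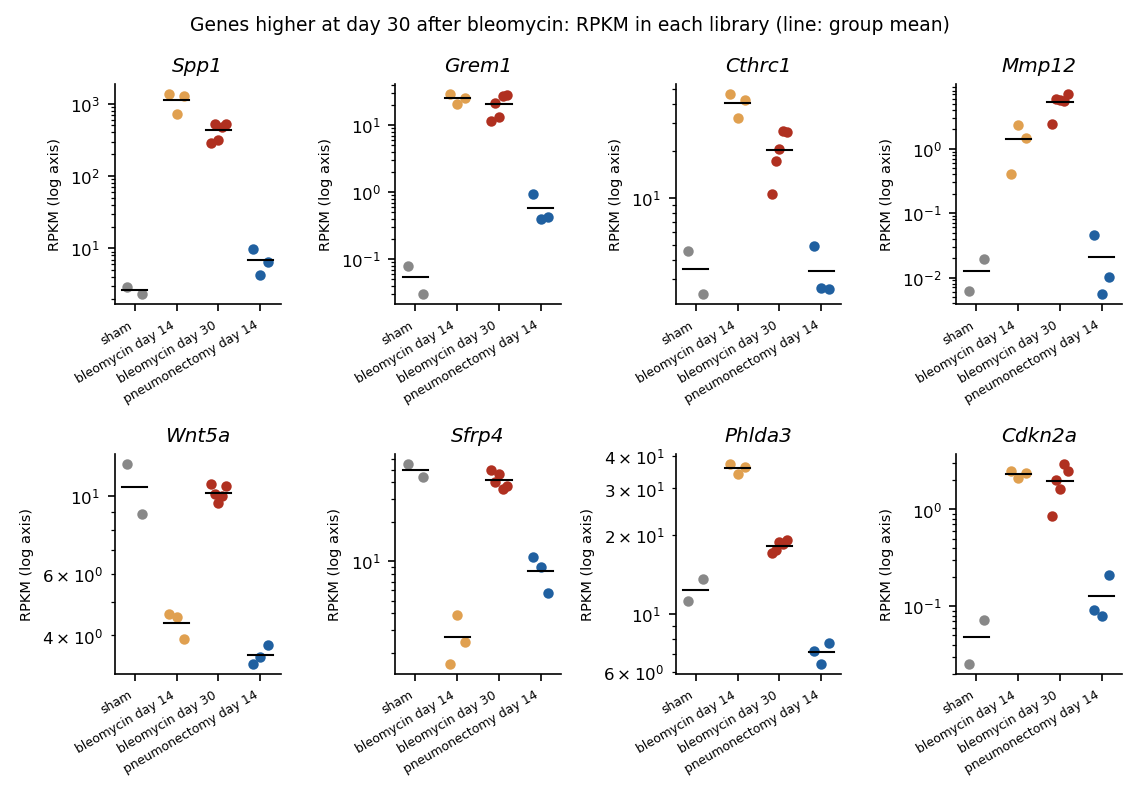
RPKM on a log axis in each of the 13 libraries for 8 genes higher at day 30 after bleomycin, by group, with points for libraries and a line for the group mean. Every day 30 library lies above every pneumonectomy library in all 8 panels, and Spp1 spans 290.1 to 523 RPKM at day 30 against 4.25 to 9.87.

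Macrophage and neutrophil genes were also higher at day 30, and Spp1, Mmp12 and Ibsp are among genes that macrophages or osteoclast-like cells can express. Of 18 tested macrophage markers, 14 were higher at day 30, 1 (Mertk) was higher after pneumonectomy and 3 were not called (median 2.12). The most abundant, lysozyme Lyz2, which may share reads with its copy Lyz1, was at 149, 373, 593, 326 and 399 RPKM against 27.2, 15.1 and 18.7 RPKM. The complement subunits C1qa and C1qb differed by 4.51 ± 0.33 and 4.21 ± 0.42, and the proton pump subunit Atp6v0d2 by 3.74 ± 0.46. Of 6 tested granulocyte markers 5 were higher at day 30, S100a9 at 12.998 to 40.6 RPKM against 0.256 to 3.96. Il1b, the cytokine interleukin 1 beta, was at 24.1, 15.1, 7.97, 20.9 and 15.4 RPKM against 0.315, 0.640 and 0.639 RPKM (4.39 ± 0.57), the opposite direction to Il6 and Ccl2.

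The order of the day 30 libraries was shared only in part between these genes. The macrophage sum was 249, 561, 891, 474 and 591 RPKM in replicates 1 to 5, highest in replicate 3. Spp1, Grem1 and Cthrc1 were lower in replicate 3 than in replicate 5. The macrophage sum, Spp1, Grem1 and Cthrc1 were all lowest in replicate 1. Among replicates 1, 2, 4 and 5 Spp1 followed the order of the macrophage sum, whereas Grem1 and Cthrc1 were higher in replicate 4 than in replicate 2. On day 14 after bleomycin Spp1 was at 1118 ± 349 RPKM (SD, n = 3), above day 30 (427 ± 114 RPKM, SD, n = 5), while the macrophage sum there, 163 to 558 RPKM, overlapped that of day 30. The part of macrophages in the difference of Spp1 was not tested.

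**Figure D4:**
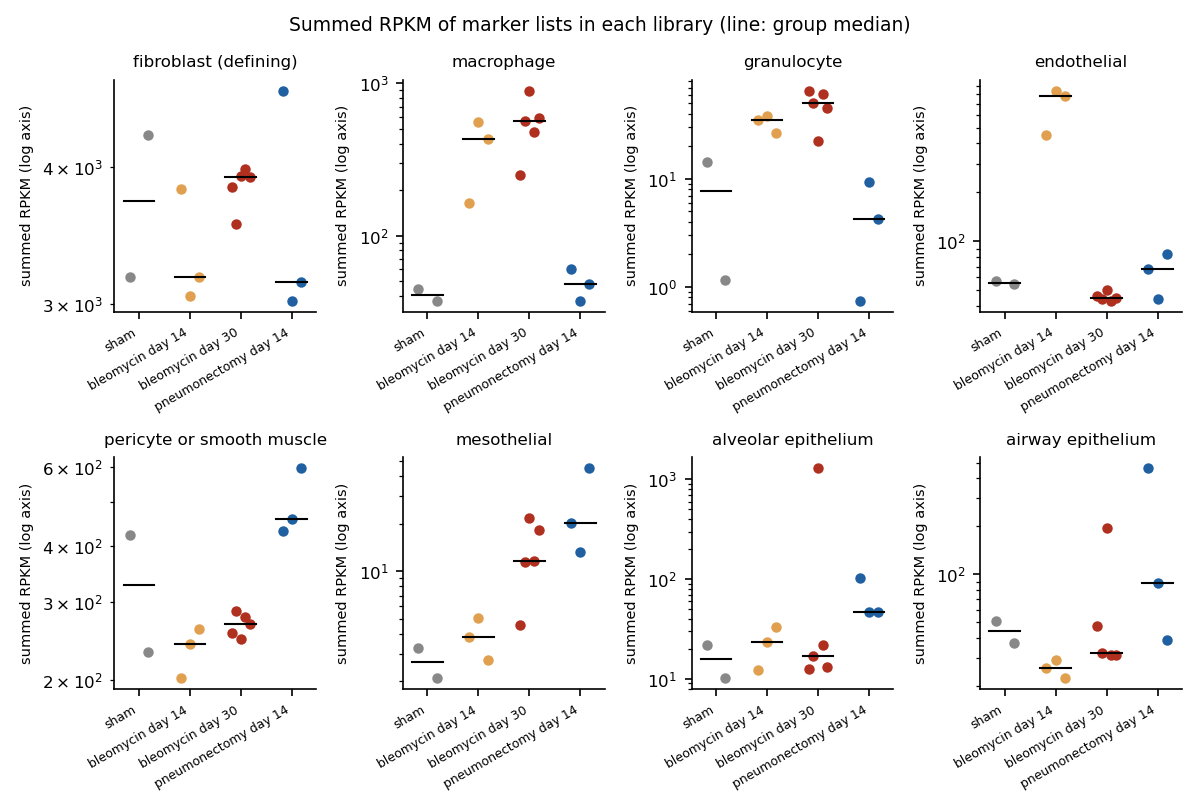
Summed RPKM of 8 marker lists (log axis) in each of the 13 libraries, by group, with points for libraries and a line for the group median. Macrophage and granulocyte sums are higher in all day 30 libraries than in all pneumonectomy libraries (249 to 891 against 37.2 to 60.3 RPKM for macrophages), the pericyte and smooth muscle sum is lower, and day 30 replicate 3 stands out for alveolar epithelium at 1307 RPKM.

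Genes of TGF-beta and BMP signalling were more often called higher after pneumonectomy than at day 30. TGF-beta drives myofibroblasts and matrix through Smad factors and induces its own inhibitors. Of 25 TGF-beta pathway genes, 17 were higher after pneumonectomy and 2 at day 30 (median -0.51, and 13 and 6 genes without scaling). The inhibitory Smad7 was at 22.9, 21.5 and 18.3 RPKM after pneumonectomy against 5.62, 6.42, 5.01, 4.62 and 5.01 RPKM at day 30 (-2.29 ± 0.12, adjusted p = 2.79e-07), and the repressors Skil and Tgif1 differed by -1.72 ± 0.12 and -1.77 ± 0.11. Of the ligands, Tgfb2 was higher after pneumonectomy (-1.28 ± 0.11) and Tgfb1 at day 30 (0.46 ± 0.12). Of 20 targets of the mechanosensitive factor YAP, 12 were higher after pneumonectomy and 1 at day 30 (9 and 5 without scaling), with Ctgf at -1.17 and Ankrd1 at -1.75.

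BMP signalling opposes TGF-beta in lung fibroblasts, and Id1, Id2, Id3 and Id4 are among its targets. Of 27 BMP pathway genes, 15 were higher after pneumonectomy and 2, the antagonists Grem1 and Fst, at day 30 (10 and 6 without scaling). Id1 was at 11.8, 9.96 and 13.5 RPKM against 6.35, 6.11, 6.52, 4.55 and 4.94 RPKM (-1.38 ± 0.17). Id3 and Id4 differed by -1.01 and -1.18, whereas Id2 was not called. The ligands Bmp2 and Bmp3 differed by -1.19 and -1.42. Fst differed by 0.66 ± 0.20, a call lost without pneumonectomy library C (0.36). The extracellular modulators Twsg1 and Fstl3 differed by -0.76 ± 0.08 and -0.87 ± 0.08.

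WNT genes went both ways, with 9 of 29 higher at day 30, a share near that over all genes, 6 higher after pneumonectomy and 14 not called. The median was 0.25, 0.58 without scaling and 0.08 without pneumonectomy library B, and without library C the number higher after pneumonectomy was 3. Wnt5a, a ligand of the non-canonical pathway, was at 10.9, 10.1, 9.55, 10.0 and 10.7 RPKM against 3.32, 3.47 and 3.75 RPKM (1.18 ± 0.10, adjusted p = 3.60e-06), and sham at 12.4 and 8.89 RPKM overlapped day 30. Sfrp4, a secreted WNT antagonist, was at 49.4, 40.4, 45.9, 35.8 and 37.2 RPKM against 10.7, 8.98 and 5.70 RPKM (1.98 ± 0.26), with sham at 54.8 and 43.7. The ligand Wnt10b and the antagonist Dkk2 differed by 1.27 ± 0.17 and 2.14 ± 0.51. Wnt10b was at 5.88 and 5.68 RPKM in sham and 2.00 to 3.07 RPKM at day 30, and Dkk2 at 0.285 and 0.252 RPKM in sham and 3.34 to 9.18 RPKM at day 30, so the day 30 level was below sham for the first and above it for the second. On the side of pneumonectomy were the receptor Lgr6 (-1.06) and the inhibitors Nkd1 (-0.81) and Znrf3 (-0.84). The canonical target Axin2 was not called (0.36).

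Adventitial fibroblast genes had large differences in some members, but the count of the list depended on the fit. Of 26 tested, 10 were higher at day 30 and 4 after pneumonectomy (median 0.30). The counts were 16 and 2 without scaling (median 0.64), 6 and 7 with array weights (median 0.11), and 6 and 5 without pneumonectomy library C (median 0.18). Cd248 (endosialin) was at 93.5, 67.7, 87.7, 58.8 and 69.2 RPKM against 29.1, 29.9 and 27.7 RPKM (1.01 ± 0.15), and sham stood above both at 119 and 121. Pi16, a marker of adventitial progenitors, was at 205, 177, 218, 135 and 170.2 RPKM against 75.6, 76.6 and 60.1 RPKM (1.00 ± 0.22), with sham at 285 and 299 RPKM. For both genes pneumonectomy was the lowest and sham the highest of the 3 groups, in every library. Il33, an alarmin of adventitial fibroblasts, was at 32.8, 25.2, 39.3, 23.1 and 30.01 RPKM at day 30, 13.7, 12.1 and 8.92 after pneumonectomy and 46.3 and 36.7 in sham, with 1 day 30 library above the lower sham library. Has1, a hyaluronan synthase in the same list, went the other way (-2.61 ± 0.46).

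Retinoid genes split between enzymes. Dhrs3, which reduces retinal and limits retinoic acid, was at 9.40, 13.6, 12.1, 11.0 and 14.5 RPKM at day 30 against 2.74, 3.03 and 3.04 RPKM (1.66 ± 0.16, adjusted p = 7.79e-06). Aldh1a1, which makes retinoic acid, was higher after pneumonectomy, at 70.0, 69.1 and 88.4 RPKM against 22.9, 28.0, 33.7, 30.3 and 31.8 RPKM (-1.71 ± 0.19), while its relative Aldh1a2 was higher at day 30 (0.88 ± 0.17). Of 16 retinoid genes 5 were higher at day 30 and 3 after pneumonectomy (9 and 1 without scaling). The shares over all genes were 28.5% and 29.1%, so the count at day 30 was near that of all genes.

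**Figure D5:**
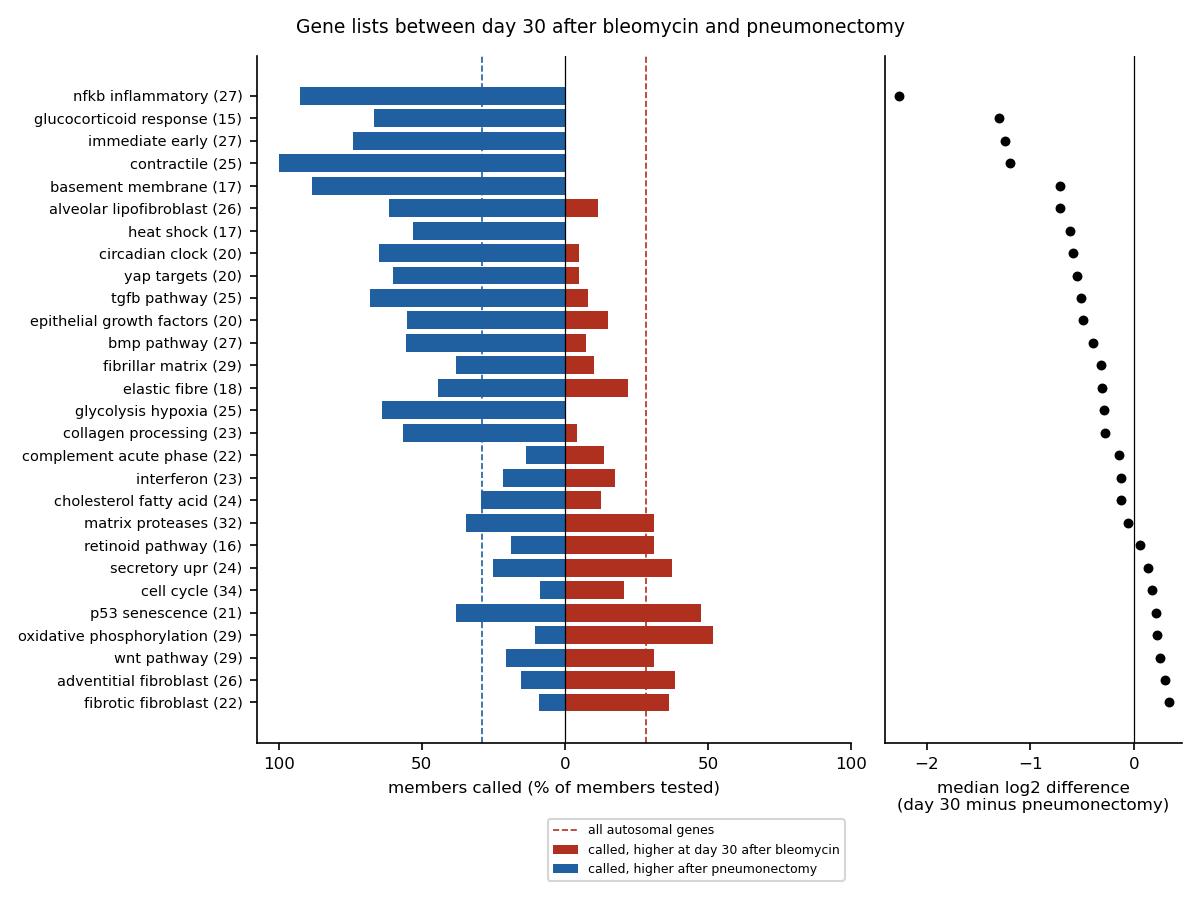
Share of the tested members of each of 28 gene lists called higher at day 30 after bleomycin (red bars, right) or after pneumonectomy (blue bars, left), with the number tested in brackets, dashed lines at the shares over all autosomal genes (28.5 and 29.1 percent), and the median log2 difference of each list in the right panel. The contractile list reaches 25 of 25 and the NF-kB list 25 of 27 on the side of pneumonectomy, while the medians of the fibrotic, adventitial and WNT lists lie at 0.33, 0.30 and 0.25.

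The response to DNA damage split within its list, which held 10 genes higher at day 30, 8 higher after pneumonectomy and 3 not called of 21. The factor p53 halts the cell cycle or starts cell death after DNA breaks. Phlda3, a p53 target that restrains Akt, was at 17.0, 17.5, 18.7, 18.5 and 19.1 RPKM at day 30 against 7.19, 6.44 and 7.76 RPKM (1.00 ± 0.07, adjusted p = 1.54e-06), with sham at 11.2 and 13.5 between them. The p53 targets Ccng1 and Bax were higher at day 30 by 0.56 ± 0.06 and 0.57 ± 0.09. The cell cycle inhibitors Cdkn2a and Cdkn2b, which mark senescent cells and do not depend on p53, were at 0.856, 2.00, 1.62, 2.94 and 2.47 and 1.36, 1.81, 1.79, 2.55 and 2.29 RPKM at day 30 against 0.0912, 0.0792 and 0.210 and 0.441, 0.219 and 0.240 RPKM (2.92 ± 0.33 and 2.10 ± 0.25). On the other side, Cdkn1a (p21) was at 31.3, 33.1 and 27.2 RPKM after pneumonectomy against 21.3, 19.8, 18.9, 19.8 and 21.7 RPKM (-0.93 ± 0.10), and Plk2, Gdf15 and the death receptor Fas differed by -1.91, -1.65 and -1.61.

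The cell cycle list held a smaller share of called genes than the 57.7% over all genes, but its counts depended on the fit. Of 34 cell cycle genes 7 were higher at day 30, 3 after pneumonectomy and 24 not called (median 0.17), and Mki67 was at -0.15. Without scaling the counts were 18 and 2, and with a pseudocount of 1 they were 3 and 3. The G1 cyclin Ccne1 (-1.34 ± 0.18) and the replication clamp Pcna (-0.68 ± 0.10) were higher after pneumonectomy, and the helicase subunit Mcm7 at day 30 (0.45 ± 0.09). Genes of oxidative phosphorylation were slightly higher at day 30 in 15 of 29 and after pneumonectomy in 3, with Cox7c at 7.53, 7.29, 8.01, 7.45 and 6.67 RPKM against 3.99, 3.67 and 3.75 RPKM (0.60 ± 0.07). The members are short transcripts, and over all genes 33.1% of the shortest 2460 and 14.6% of the longest 2459 by exon length were called higher at day 30, against 17.5% and 46.3% higher after pneumonectomy. With the length trend removed the list had 14 genes higher at day 30 and 2 after pneumonectomy, with a median of 0.14. Relative to the median of all genes this was 0.08, against 0.22 before the length trend was removed. Lists of secretion and protein folding (9 higher at day 30 and 6 after pneumonectomy of 24), interferon response (4 and 5 of 23), cholesterol synthesis (3 and 7 of 24) and complement (3 and 3 of 22) had called genes on both sides. Without scaling the counts were 16 and 5, 6 and 2, 12 and 2, and 6 and 3, so that the side of interferon and cholesterol genes turned. Among their members, Asns (asparagine synthetase) differed by 1.04 ± 0.16 and the B-cell chemokine Cxcl13, at 9.52, 8.02, 20.8, 23.0 and 46.4 RPKM against 2.87, 1.20 and 2.50, by 2.71 ± 0.49.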

How the data were processed

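RNA of sorted lung fibroblasts was sequenced in 13 libraries, and the values deposited by the authors are RPKM per gene on mm10 (GRCm38), per the submitters' processing notes and the file headers. The aligner and counter are not given in the sources used here. Per the labels' protocols TruSeq v2 kits were used, which do not mark strand, so antisense and overlapping genes cannot be told apart. All 13 columns were used. Chromosomes came from GENCODE M21 and RefSeq symbols, which 240 of the 12938 kept genes lacked. Depth was estimated from low values, with GENCODE exon lengths for the number of reads. After allowing for depth, 99.9% of 29472 low values, or 2 times the value, were whole multiples of the smallest value of their gene (within 0.02). The number of reads is therefore an estimate, and the worth of 1 read covers counting error only. RPKM were scaled by trimmed-mean-of-M factors (trimming 30% of ratios and 5% of levels), 0.1 was added, and log2 values of all 13 libraries were fitted with limma 3.58.1 in R 4.3.3 (trend, robust, 9 residual degrees of freedom). The step was tested on simulated data. Alternatives were pseudocounts of 0.5 and 1, no filter and 5 RPKM, no and upper-quartile scaling, the compared groups alone, array weights, a length correction, a test against 1.5-fold and leaving out each library.

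The members and lists were chosen with earlier results of these data known. The naming rule took, in each direction, the 10 largest called differences (at least 5 RPKM in the higher group, no overlap), in each list the 3 smallest p, a panel of 12 and the 3 most abundant markers of other cells. Other genes were chosen after their values were seen: Adamts5, Aldh1a2, Ankrd1, Atf3, Axin2, Bax, Bmp2, Bmp3, Ccng1, Cdkn1a, Cdkn2a, Cdkn2b, Cebpa, Ces1d, Col4a3, Csf3, Cspg4, Ctgf, Cxcl1, Cxcl2, Dkk2, Egr1, Epas1, Fas, Fbn2, Fgf18, Fkbp5, Fmod, Fn1, Fst, Hgf, Id1, Id3, Id4, Il6, Itga8, Kcnj8, Ldha, Lgr6, Lif, Lpl, Lrrc15, Ltbp2, Mfap5, Mki67, Mmp10, Mmp13, Mmp2, Mmp9, Mt2, Myocd, Ndrg1, Nfkbia, Nkd1, Notch3, Nr3c1, Nr4a1, P4ha3, Pdgfa, Pdgfc, Per1, Pi16, Plin2, Plk2, Pparg, Ptgs2, Rgs5, Runx1, Slc2a1, Srf, Tgfb1, Tnc, Tnfaip3, Trpc6 and Wnt10b. Some genes are not reported here.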

Additional observations from a re-analysis of the deposited data

Results flagged for a closer look

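In each named gene the highest and the lowest of the 5 day 30 libraries were compared with the others by Dixon's test at the 95% level, and 17 of 206 genes had a library far from the rest. Chance alone flags about 1 in 20 groups. Of the 17, 9 lay in replicate 1 and 6 in replicate 3.

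Among the flagged genes, replicate 1 was highest for the immediate-early Nr4a1, Egr1 and Atf3, for the cytokine Il6 and for single genes of other lists. Il6 was at 94.3 RPKM there and at 19.6 to 35.4 in the other 4, Nr4a1 at 319.8 against 140.1 to 187, Egr1 at 356 against 198 to 239, and Atf3 at 127 against 48.0 to 69.6. Fas was at 8.26 RPKM against 5.73 to 6.31, Ankrd1 at 1.89 against 0.734 to 1.025, Irf9 at 2.83 against 2.18 to 2.31 and the filament protein Synm at 4.04 against 2.91 to 3.07. The oxygen-sensing factor Epas1 was lowest there, at 6.86 RPKM against 12.96 to 14.5.

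Replicate 3 held epithelial transcripts. The surfactant genes Sftpc, Sftpb and Sftpa1 were at 970, 123 and 88.7 RPKM there, and their highest values in the other 4 were 10.6, 1.38 and 0.916. The club cell genes Scgb1a1 and Cyp2f2 were at 123 and 15.2 RPKM, with highest values of 1.39 and 0.846 elsewhere. Cebpa was at 9.71 RPKM against 5.25 to 6.29. Srebf2 was lowest in replicate 2, at 8.89 RPKM against 9.42 to 9.58, and Csf3 highest in replicate 5, at 0.264 against 0.107 to 0.144.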

How the results depend on the processing

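The count of 7106 called genes was 3375 (1769 higher at day 30 and 1606 after pneumonectomy) where at least 5 RPKM were required, which tests fewer genes, and 1022 (278 and 744) in a test against a 1.5-fold difference. Values as deposited gave 7067 and 1633. Leaving out 1 library at a time gave 6318 to 7075 called genes, 3088 to 3608 of them higher at day 30 and 3213 to 3555 after pneumonectomy. Of 186 named genes that were called none changed direction under these alternatives, 68 were not called against a 1.5-fold difference, and 16 lost the call under at least 1 other setting (Atf3, Chil3, Egr1, Eng, Fst, Gbp3, Lrrn4, Msln, Pdgfa, Per1, Rgs5, Runx1, Scgb1a1, Srebf2, Upk3b and Vim). The cause was not tested.

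Among genes that were not called the sign turned in 4. Fos was at 0.017 with the 5 RPKM filter, 0.25 as deposited and 0.058 with upper-quartile scaling. Krt19 was at 0.26 as deposited, 0.078 with upper-quartile scaling, 0.091 with array weights and at -0.37 to 0.25 when single libraries were left out. Ramp2 was at 0.011 with no filter, 0.10 with the 5 RPKM filter, 0.33 as deposited, 0.14 with upper-quartile scaling and at -0.12 to 0.080 when single libraries were left out. Postn was at -0.033 to 0.21 when single libraries were left out. No paired analysis was possible because the pneumonectomy columns carry no replicate number. With 3 and 5 libraries of different sex and day, and with less depth after pneumonectomy, the groups differ in more than treatment. Any difference in preparation could not be told apart from these.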

Other observations

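Endothelial markers were low in both groups and lower at day 30. Of 20 markers 14 were higher after pneumonectomy, none at day 30 and 6 were not called. The junction gene Pecam1 was at 4.57, 2.31 and 5.56 RPKM after pneumonectomy and at 0.682, 0.564, 0.793, 0.454 and 0.556 RPKM at day 30 (-2.84 ± 0.30), whereas on day 14 after bleomycin it averaged 54.1 RPKM. The clotting factor Vwf differed by -3.06 ± 0.30, and Ramp2 was not called (-0.01). Mesothelial markers were low too, with Msln at 7.55, 5.07 and 17.1 RPKM after pneumonectomy and 1.42 to 6.88 at day 30. Of 6 tested, 4 were higher after pneumonectomy, but 1 without pneumonectomy library C, where the calls of Msln, Lrrn4 and Upk3b were lost, and 2 without scaling.

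Epithelial markers depended on single libraries. None of 11 alveolar epithelial markers was called by limma between the groups (0 also at an unadjusted p under 0.05), whereas without day 30 replicate 3 the fit called 9 of them higher after pneumonectomy. The club cell gene Scgb1a1 was at 418, 61.9 and 9.04 RPKM in pneumonectomy libraries A, B and C. Its call was lost without library A or B, without day 30 replicate 1, 2, 4 or 5, with no filter and in the compared groups alone.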
